A study of Mus musculus with 48 samples.

Results

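The genes described are the subunits of the transcription factor NF-kB and the genes that its own activity switches on to restrain or tune it. The members were taken by gene symbol: Nfkb1, Nfkb2, Rela, Relb and Rel encode the subunits, Nfkbia and Nfkbie encode inhibitors, and Birc3 and Tnfaip3 encode feedback regulators. They are 9 genes of the 31920 listed for the ventricle and the 31741 listed for the cell fractions. Every member passed the filter on low counts in each of the 4 sample types.

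In resting cells NF-kB dimers are held in the cytoplasm by IkB proteins. In the canonical pathway, signals from receptors of the tumour necrosis factor, interleukin-1 and Toll-like families activate a kinase complex that marks IkB for destruction, and dimers of RELA, c-REL and p50, the product of Nfkb1, enter the nucleus. In the alternative pathway, the kinase NIK leads to processing of the Nfkb2 product p100 to p52, which pairs with RELB. Nfkb1, Nfkb2, Rel, Relb, Nfkbia, Nfkbie, Birc3 and Tnfaip3 are all known as NF-kB target genes, so that the pathway feeds back on itself. In the heart the pathway is known for its activity in infiltrating immune cells, fibroblasts and stressed cardiomyocytes.

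The mice were of the FVB strain. Their genotype was wild type or PLNR9C, an amino acid change in phospholamban, which inhibits calcium uptake into the sarcoplasmic reticulum of heart muscle. Animals of both genotypes received vehicle or 50 mg/kg JQ1, a small molecule that displaces BET bromodomain proteins from acetylated histones. The left ventricle was sampled whole at 8 weeks (preDCM in the labels) and at 20 weeks (DCM, dilated cardiomyopathy). Pooled cardiomyocytes and pooled non-myocytes came from mice of 16 weeks, also labelled DCM. Each of the 16 groups held 3 libraries. The sources used here do not give how the PLNR9C allele is carried, how long JQ1 was given or how many animals entered a pool. Counts per gene do not tell the changed Pln sequence from the unchanged one, and Pln was not used to check the genotype.

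Ventricle libraries held 16984138 to 27086694 reads in genes at 8 weeks and 18415351 to 26730918 at 20 weeks. Those of cardiomyocytes held 10249780 to 13146653 and those of non-myocytes 10041094 to 11815003. The JQ1 label was checked with Hexim1, a gene known to rise when BET proteins are displaced. It was higher with JQ1 in each of the 8 comparisons of JQ1 with vehicle, by 2.52-fold to 5.99-fold, and the 3 treated libraries never overlapped the 3 untreated ones. The fractions were enriched and not pure. The summed level of 10 cardiomyocyte markers ran from 51640 to 109800 CPM (counts per megaread, after scaling by the trimmed mean of M-values) in cardiomyocytes and from 1397 to 10560 CPM in non-myocytes. In cardiomyocytes 14 macrophage markers summed to 46.4 to 876.5 CPM. A few libraries stood apart: the second of the PLNR9C JQ1 cardiomyocytes held the 876.5 CPM of macrophage markers, against 272.6 CPM in the lowest of its group. It also held 6443 CPM of fibroblast markers, against 2086 and 3768 CPM, and 1371 CPM of endothelial markers, against 717.5 and 918.6 CPM. Its cardiomyocyte markers were the lowest of the group, at 51640 CPM against 84890 and 73020 CPM. The third library of the wild type JQ1 non-myocytes held 251 CPM of Tnfaip3, against 51.3 and 56.6 CPM in the other two. Where leaving out one of them changed a result described below, this is said beside it.

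The promoters are shown first, because most of the members are known NF-kB targets. RefSeq promoters on GRCm38.p6 were found for 7 of the 9 members, and none was in the table for Nfkb1 and Relb. Where a gene had several, the window nearest to the start in the deposited tables was used, from 250 bases before to 50 bases after the start site. A match to the kappaB consensus, the 10-base site that NF-kB dimers bind, was found on either strand in 5 of these 7 windows, against 8.46% of all 32851 promoter windows of the same length. The 150 bases upstream of the start are printed for those 5 genes and for Birc3, each 5′ to 3′ on the gene's strand, with the matches in capitals.
Nfkb2 (chr19:46304587-46304736, plus strand): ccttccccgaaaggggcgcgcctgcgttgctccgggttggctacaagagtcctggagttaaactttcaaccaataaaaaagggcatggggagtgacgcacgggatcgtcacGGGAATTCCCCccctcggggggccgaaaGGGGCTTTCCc
Nfkbie (chr17:45555550-45555699, plus strand): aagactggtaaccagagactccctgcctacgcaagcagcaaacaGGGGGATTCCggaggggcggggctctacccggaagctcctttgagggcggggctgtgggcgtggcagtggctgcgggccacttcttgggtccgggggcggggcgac
Nfkbia (chr12:55492648-55492797, minus strand): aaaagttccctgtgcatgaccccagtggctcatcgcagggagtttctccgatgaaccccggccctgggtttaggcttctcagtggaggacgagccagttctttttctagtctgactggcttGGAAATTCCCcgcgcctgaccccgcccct
Tnfaip3 (chr10:19015411-19015560, minus strand): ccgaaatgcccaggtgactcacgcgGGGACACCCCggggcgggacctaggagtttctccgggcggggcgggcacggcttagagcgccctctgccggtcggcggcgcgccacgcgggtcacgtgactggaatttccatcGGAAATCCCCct
Rel (chr11:23770970-23771119, minus strand): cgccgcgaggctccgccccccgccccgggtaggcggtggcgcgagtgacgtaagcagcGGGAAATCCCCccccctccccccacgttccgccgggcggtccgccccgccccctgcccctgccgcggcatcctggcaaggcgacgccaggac
Birc3 (chr9:7873171-7873320, minus strand): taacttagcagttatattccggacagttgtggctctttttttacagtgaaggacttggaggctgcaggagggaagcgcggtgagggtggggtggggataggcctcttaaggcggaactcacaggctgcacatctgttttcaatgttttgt
In Nfkb2 and in Rel the longer run of capitals holds 2 overlapping matches, 1 on each strand. The windows of Birc3 and Rela held no match, which says only that these letters are not in them.

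In the deposited gene models, Nfkb1 lies on chromosome 3 (135584655 to 135691547, minus strand), Rela on chromosome 19 (5637490 to 5648130, plus strand) and Rel on chromosome 11 (23741729 to 23770970, minus strand). Nfkb2 lies on chromosome 19 (46304737 to 46312385, plus strand) and Relb on chromosome 7 (19606222 to 19629438, minus strand). Nfkbia lies on chromosome 12 (55489409 to 55492647, minus strand), Nfkbie on chromosome 17 (45555716 to 45563168, plus strand), Birc3 on chromosome 9 (7848701 to 7873170, minus strand) and Tnfaip3 on chromosome 10 (19000910 to 19015410, minus strand). In GENCODE M21, Nfkb2 shares 299 bases with the antisense gene Psd and 875 bases with an antisense long non-coding RNA, and Nfkb1 shares 3897 bases with an unspliced model on its own strand. The sources used here do not say whether counting used strand, so that within these shared bases reads of Nfkb2 and of its antisense partners cannot be told apart.

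Levels were compared between genes with the deposited RPKM (reads per kilobase of gene model and megaread of the library). In wild type vehicle ventricle at 8 weeks the inhibitor gene Nfkbia had the highest level of the 9, at 26.7 ± 2.8 RPKM (SD, n = 3). The canonical subunits Rela, at 16.2 ± 0.28 RPKM, and Nfkb1, at 15.3 ± 0.81 RPKM, came next and overlapped each other. Nfkb2 at 9.06 ± 0.33 RPKM, Relb at 4.13 ± 0.45 RPKM, Birc3 at 2.83 ± 0.27 RPKM and Rel at 1.75 ± 0.33 RPKM followed, each apart from the next. Tnfaip3, at 0.821 ± 0.17 RPKM, and Nfkbie, at 0.799 ± 0.15 RPKM, were lowest and overlapped. By mean, cardiomyocytes and the older ventricles had the same order. At 20 weeks the ranges of Nfkbia, Rela and Nfkb1 overlapped from one to the next, and so did those of Birc3 and Rel and of Tnfaip3 and Nfkbie.

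Non-myocytes had another order. Nfkbia again led, at 197 ± 37 RPKM, ahead of Rela at 51.7 ± 4.2 RPKM and Nfkb1 at 39.0 ± 2.7 RPKM. Tnfaip3, which encodes the deubiquitinase A20 that shuts down signalling upstream of the kinase complex, held the eighth place in cardiomyocytes and the fourth here, at 19.4 ± 4.5 RPKM against 0.771 ± 0.15 RPKM. Its range overlapped that of Nfkb2, at 18.1 ± 3.6 RPKM, which in turn overlapped that of Birc3 at 15.5 ± 2.2 RPKM. Rel, the subunit c-REL known from lymphocytes and myeloid cells, was lowest at 2.58 ± 0.18 RPKM.

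**Figure D1:**
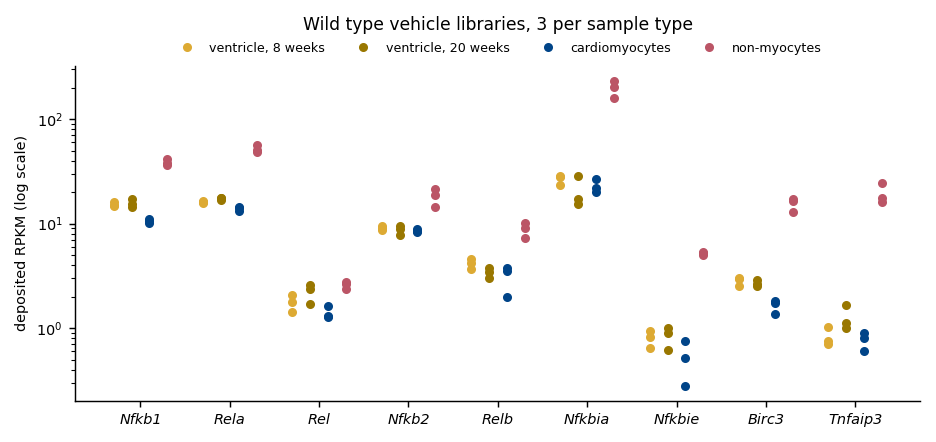
Deposited RPKM of the 9 members on a log axis in wild type vehicle libraries, 3 dots per sample type. On this scale, which divides by total reads, the 3 non-myocyte libraries lie above the 3 cardiomyocyte libraries for every member, most for Tnfaip3 (means of 19.4 and 0.771 RPKM), and under the trimmed mean scaling Rel turns the other way (0.10, cardiomyocytes minus non-myocytes, log2).

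The first question was how the members differed between PLNR9C and wild type hearts with vehicle. At 8 weeks 5 of the 9 members rose and none fell, where 14.4% of the 15501 genes tested passed and 7.86% rose. The members' median log2 fold change was 0.71 and that of all genes 0.0077. In the older ventricles, at 20 weeks, 6 rose and none fell, where 44.7% of 15971 genes passed and 23.3% rose. In cardiomyocytes 5 rose and none fell, where 26.1% of 14142 genes passed and 14.3% rose. In non-myocytes 4 rose and none fell, where 18.6% of 15347 genes passed and 10.3% rose. Relb, Nfkbie and Birc3 rose in all 4 sample types, Nfkb2 in 3 and Nfkbia in none. Here and below, a gene rose or fell where its p in edgeR's quasi-likelihood test, after Benjamini-Hochberg adjustment across the whole fit, was under 0.05. The share of genes that fell was 6.50% and 21.4% in the younger and older ventricles, 11.8% in the cardiomyocyte and 8.32% in the non-myocyte fraction. Leaving out 1 library brought the count in cardiomyocytes from 5 to 3 (any of the wild type libraries or the third PLNR9C one) and that in the non-myocyte fraction from 4 to 1 (the first PLNR9C one).

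Nfkb2, the precursor of p52, measured 35.9, 35.3 and 37.1 CPM in the wild type ventricles at 8 weeks and 58.3, 62.8 and 56.6 CPM in the PLNR9C ventricles. Every PLNR9C library lay above every wild type one, a 1.64-fold rise (log2 fold change 0.72 ± 0.07, SE; adjusted p = 2.47e-06, edgeR). At 20 weeks it held 37.6, 32 and 39.4 CPM in wild type and 60.1, 60.6 and 67.7 CPM in PLNR9C, again without overlap (1.73-fold, adjusted p = 1.26e-06, edgeR). Cardiomyocytes held 33.3, 35.3 and 34.9 CPM in wild type and 71.5, 70.9 and 66.6 CPM in PLNR9C. That 2.02-fold rise (log2 fold change 1.01 ± 0.09, adjusted p = 1.33e-05, edgeR) was the largest of the 4 for this gene, from groups with little spread. In non-myocytes the wild type libraries held 79.0, 68.3 and 52.5 CPM and the PLNR9C libraries 109.95, 75.9 and 60.9 CPM. These groups overlapped and the difference of 0.31 did not pass (95% interval -0.13 to 0.74, adjusted p = 0.329, edgeR). Reads of Psd, whose end overlaps Nfkb2, numbered 124 to 182 in the wild type and 220 to 335 in the PLNR9C vehicle ventricles at 8 weeks. At 20 weeks they numbered 146 to 183 and 238 to 319. They overlapped between the genotypes in cardiomyocytes, at 93 to 118 and 103 to 225, and in non-myocytes, at 311 to 444 and 343 to 538. Their part in the Nfkb2 counts was not tested.

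The difference between the fractions in this genotype effect was itself tested. The log2 fold change of Nfkb2 in cardiomyocytes minus that in non-myocytes was 0.66 ± 0.23, which did not pass (adjusted p = 0.0754, edgeR). It passed with the replicate number as a block, at 0.66 (adjusted p = 0.0431), and each PLNR9C non-myocyte library held more Nfkb2 than the wild type one of its number. It also passed without the first PLNR9C vehicle non-myocyte library, at 0.93 (adjusted p = 0.0039), and without the third wild type vehicle non-myocyte library, at 0.80 (adjusted p = 0.0283). No member passed this test of difference between the fractions in the main edgeR fit or DESeq2, where 8.33% of 15823 genes passed. At an unadjusted p under 0.05 were 3 of the 9 members and 22.2% of all genes.

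Relb, the partner of p52, measured 14.3, 11.9 and 14.9 CPM in wild type and 26.2, 22.5 and 22.9 CPM in PLNR9C ventricles at 8 weeks, without overlap (1.75-fold, adjusted p = 0.000174, edgeR). At 20 weeks Relb held 12.1, 10.4 and 12.9 CPM against 20.1, 17.9 and 20.1 CPM, a rise of similar size (1.64-fold, adjusted p = 8.23e-05, edgeR). Cardiomyocytes held 12.6, 11.6 and 6.72 CPM in wild type and 32.9, 20.9 and 18.7 CPM in PLNR9C, with the groups apart but a wide spread within each (2.34-fold, log2 fold change 1.23 ± 0.27, adjusted p = 0.00514, edgeR). Non-myocytes held 30.7, 27.4 and 22.3 CPM in wild type and 59.1, 39.7 and 32.4 CPM in PLNR9C. The groups were apart (1.63-fold, adjusted p = 0.0194, edgeR), and the call was lost without the first PLNR9C library (adjusted p = 0.0729) or the third wild type one (adjusted p = 0.068). The Relb call was also lost with the 2 vehicle groups fitted without the JQ1 libraries. Nfkbie was the 1 member still called without the first PLNR9C library.

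Of the canonical subunits, Rela measured 45.7, 44.4 and 43.2 CPM in wild type and 53.8, 51.3 and 49.4 CPM in PLNR9C at 8 weeks. These groups did not overlap and the 1.16-fold rise passed narrowly (log2 fold change 0.21 ± 0.07, adjusted p = 0.0493, edgeR). It did not pass with DESeq2 (adjusted p = 0.0621) or without any single library, where the adjusted p reached 0.166. Nfkb1 measured 71.3, 69.9 and 76.0 CPM in wild type and 73.2, 77.9 and 71.6 CPM in PLNR9C at 8 weeks, so that the groups overlapped (0.04 ± 0.06, 95% interval -0.10 to 0.17). At 20 weeks Nfkb1 was 1.15-fold higher in PLNR9C, with 73.0, 85.0 and 75.8 CPM against 92.1, 91.1 and 86.4 CPM (adjusted p = 0.0352, edgeR), a call that was lost without 4 of the 6 libraries in turn. Rel had few reads, 65 to 192 per vehicle library at 8 weeks, and passed in non-myocytes. There it measured 6.39, 5.76 and 6.61 CPM in wild type and 15.2, 8.91 and 11.2 CPM in PLNR9C, without overlap (1.88-fold, adjusted p = 0.0126, edgeR). Without the first PLNR9C library the adjusted p was 0.0596.

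**Figure D2:**
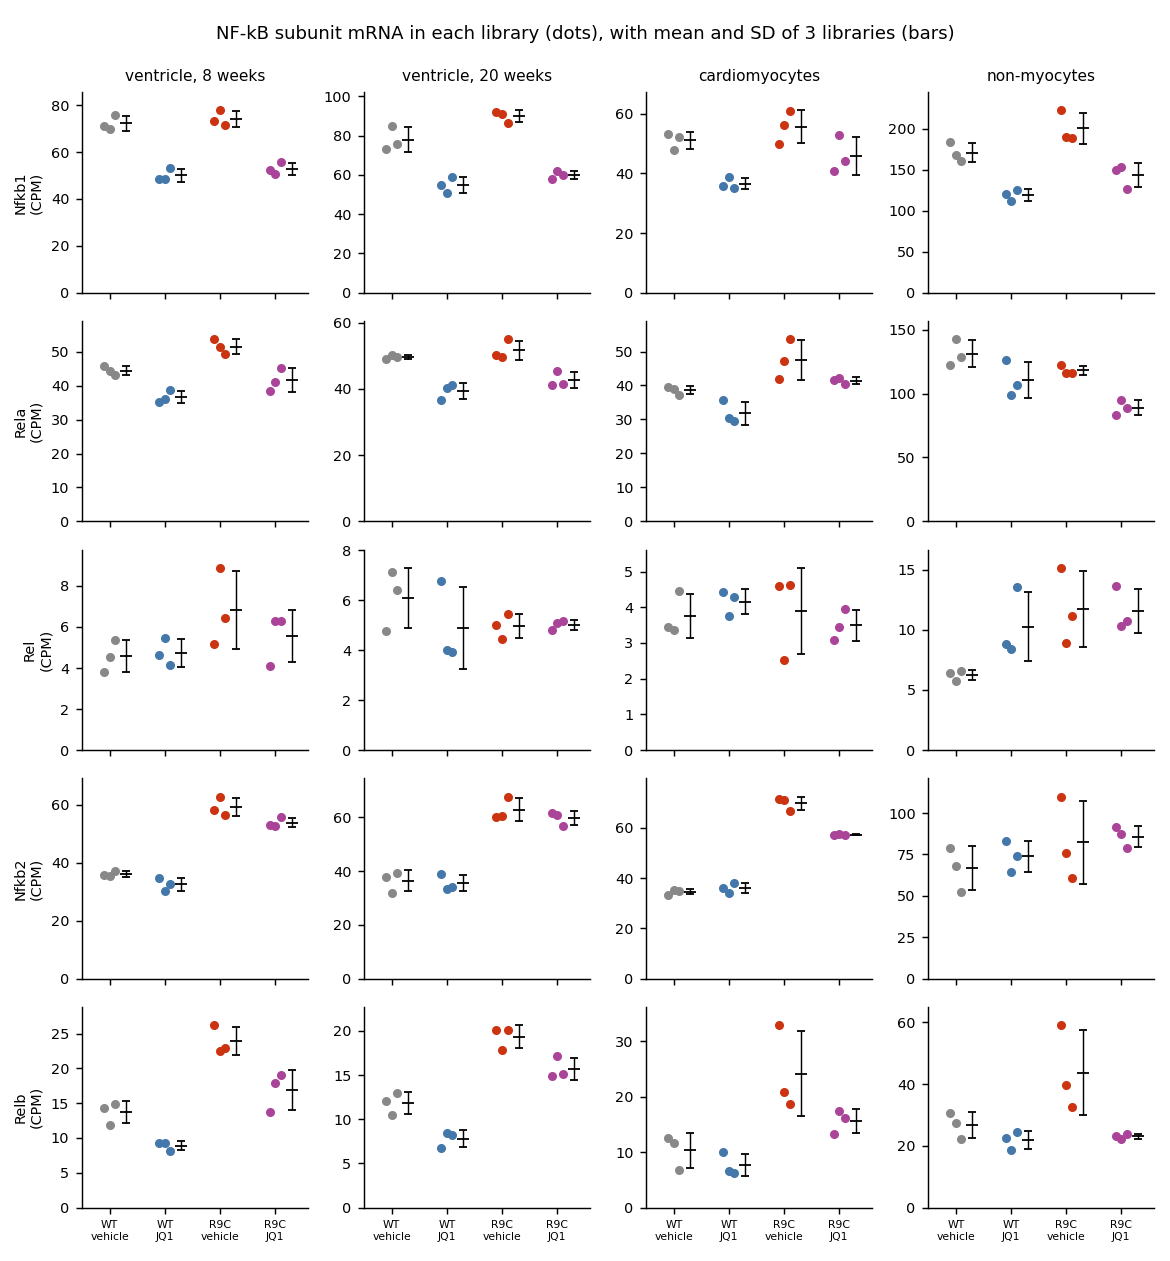
CPM of the 5 subunit genes (rows) in each library (dots) of the 4 sample types (columns), with the mean and SD of 3 libraries as bars and each axis starting at 0. Nfkb2 and Relb lie higher in PLNR9C than in wild type vehicle ventricle at each age, while Nfkb1 and Rela lie lower with JQ1 than with vehicle in the ventricle of both genotypes.

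The 2 inhibitor genes differed from each other. Nfkbia, which encodes the main inhibitor IkB-alpha, measured 38.7, 45.4 and 44.3 CPM in wild type and 41.5, 44.5 and 51.9 CPM in PLNR9C at 8 weeks. The groups overlapped there and in the other 3 sample types, with log2 fold changes from 0.0092 to 0.17, none of which passed. Nfkbie, which encodes IkB-epsilon, measured 2.05, 1.55 and 2.29 CPM in wild type and 5.50, 6.24 and 5.75 CPM in PLNR9C at 8 weeks. That 2.98-fold rise was the largest among the members at this age (log2 fold change 1.58 ± 0.20, adjusted p = 3.96e-05, edgeR). In ventricle at 20 weeks the wild type libraries held 1.60, 2.58 and 2.28 CPM and the PLNR9C libraries 7.04, 4.41 and 6.32 CPM, again apart (2.77-fold, adjusted p = 4.15e-05, edgeR). In cardiomyocytes the gene had 8 to 21 reads in a wild type and 32 to 65 reads in a PLNR9C vehicle library, and rose 3.17-fold (log2 fold change 1.67 ± 0.41, adjusted p = 0.0102, edgeR). In non-myocytes it measured 12, 11.4 and 12.2 CPM in wild type and 36.3, 23.6 and 17.7 CPM in PLNR9C. All 3 PLNR9C libraries were higher, with the first well above the others (2.18-fold, adjusted p = 0.00193, edgeR).

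Birc3 encodes cIAP2, a ubiquitin ligase at tumour necrosis factor receptors that also holds NIK in check. It measured 8.92, 10.1 and 10.2 CPM in wild type and 14.3, 18.8 and 14.9 CPM in PLNR9C at 8 weeks, without overlap (1.64-fold, adjusted p = 0.00111, edgeR). By 20 weeks they were 9.74, 9.06 and 10.2 CPM against 16.8, 14.7 and 14.6 CPM (1.59-fold, adjusted p = 0.000473, edgeR). In cardiomyocytes they were 4.79, 6.28 and 6.15 CPM against 12.3, 10.3 and 10.3 CPM, apart but with a call that was lost without any single library (1.91-fold, adjusted p = 0.0426 with all and up to 0.135 without one). In non-myocytes they were 54.7, 41.2 and 52.0 CPM against 66.0, 59.4 and 79.6 CPM (1.39-fold, adjusted p = 0.0327, edgeR), also lost without the second wild type, the first PLNR9C or the third PLNR9C library. That call was lost as well with the 2 vehicle groups fitted without the JQ1 libraries.

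Tnfaip3 was higher in every PLNR9C library than in every wild type vehicle library of the same sample type, and passed in 2 of the 4. At 8 weeks it measured 3.35, 3.44 and 4.68 CPM in wild type and 5.46, 7.49 and 6.58 CPM in PLNR9C (log2 fold change 0.76 ± 0.29, adjusted p = 0.0988, edgeR). DESeq2 called this difference (adjusted p = 0.039). By 20 weeks the values were 4.93, 8.04 and 5.42 CPM against 8.95, 8.68 and 10.01 CPM (1.5-fold, adjusted p = 0.0427, edgeR). In cardiomyocytes they were 4.25, 3.70 and 2.93 CPM against 16.5, 8.12 and 10.9 CPM (3.24-fold, log2 fold change 1.70 ± 0.56, adjusted p = 0.0451, edgeR). Both calls were lost without 5 of the 6 libraries in turn (adjusted p up to 0.155 and 0.142). In non-myocytes the values were 106, 69.4 and 75.5 CPM against 249, 129 and 162 CPM, a log2 fold change of 1.11 ± 0.57 that did not pass (95% interval -0.17 to 2.38, adjusted p = 0.222, edgeR). With the 2 vehicle groups fitted without the JQ1 libraries it passed (adjusted p = 0.0289), and with the replicate number as a block in that fit, chosen after seeing the data, the adjusted p was 0.000803.

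The genotype comparisons moved together with markers of other cell types. The summed level of 14 macrophage markers was 213.9 to 270.3 CPM in wild type and 588.6 to 648.8 CPM in PLNR9C vehicle ventricles at 8 weeks, and all 14 rose. At 20 weeks it was 246.3 to 275.6 CPM against 717.3 to 993.1 CPM, and 13 of 14 rose. In cardiomyocytes it was 46.4 to 64.9 CPM against 276.7 to 348.2 CPM, with 11 of the 13 tested markers risen. In non-myocytes it was 1828 to 2134 CPM against 4780 to 5553 CPM, with 12 of 14 risen, while 7 of 10 endothelial and 7 of 10 smooth muscle markers fell. No macrophage marker was at 0 in all 3 libraries of any of these 8 groups. Fibroblast markers summed to 2381 to 2776 CPM in wild type and 3132 to 3384 CPM in PLNR9C at 8 weeks, with 6 of 10 risen, and to 2458 to 2574 CPM and 6264 to 7555 CPM at 20 weeks, with all 10 risen. In cardiomyocytes they summed to 474 to 616.3 CPM against 1647 to 2280 CPM, with 9 of 10 risen, and in non-myocytes to 21440 to 22320 CPM against 30380 to 34070 CPM, with 5 of 10 risen. The 10 cardiomyocyte markers went the other way in ventricle, from 79760 to 84660 CPM down to 63360 to 69250 CPM at 8 weeks, with 6 fallen, and from 79810 to 91640 CPM down to 42860 to 48020 CPM at 20 weeks, with 9 fallen. In cardiomyocytes 4 of them fell (91910 to 99940 CPM against 63980 to 72740 CPM). At 20 weeks 7 of 10 endothelial markers fell and 1 rose (1469 to 1920 CPM against 1279 to 1492 CPM). In bulk samples more cells of a type and more RNA per cell cannot be told apart, and the part of these cells in the members' rises was not tested. Neutrophil and lymphocyte markers were low: in wild type vehicle cardiomyocytes S100a8, S100a9 and Retnlg of the neutrophil list and 7 of 12 lymphocyte markers were at 0 in all 3 libraries.

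**Figure D3:**
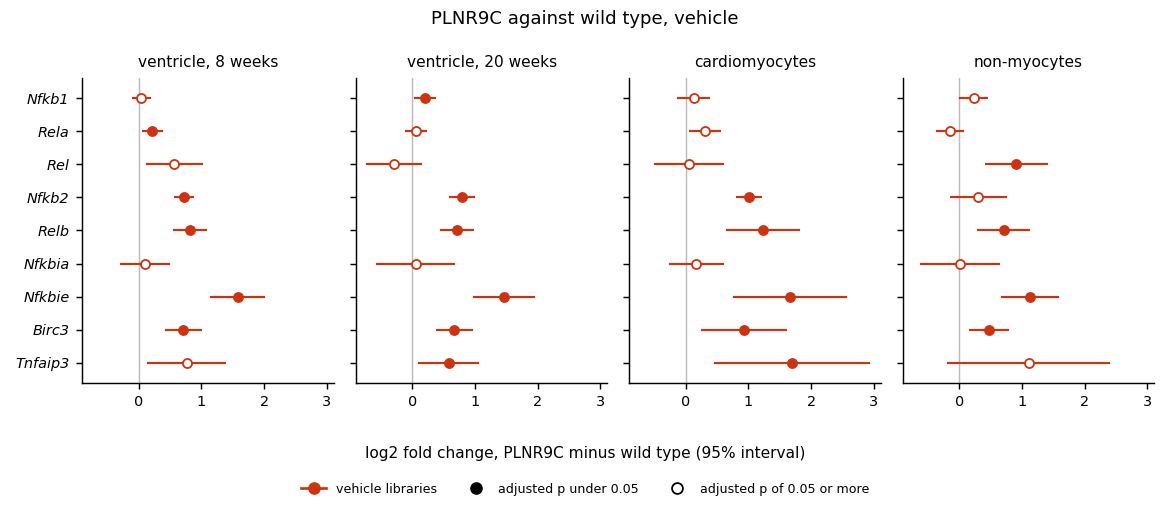
Log2 fold change of each member between PLNR9C and wild type vehicle libraries with its 95% interval in the 4 sample types, filled where the adjusted p was under 0.05. Relb, Nfkbie and Birc3 are filled to the right of 0 in all 4 panels, and Nfkbia sits near 0 in each.

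The second question was what JQ1 did to the members in each genotype. In PLNR9C at 8 weeks 4 members fell and none rose, where 33.1% of genes passed and 17.7% fell. In wild type at 8 weeks 4 fell and none rose, where 29.8% passed and 15.4% fell. At 20 weeks 3 fell in PLNR9C, where 31.9% passed and 16.1% fell, and 5 fell in wild type, where 27.2% passed and 14.9% fell. In non-myocytes 4 fell in PLNR9C, where 36.2% passed and 19.5% fell, while in wild type 2 fell and 1 rose, where 38.0% passed, 20.0% fell and 18.0% rose. In cardiomyocytes 1 member rose in PLNR9C, where 10.5% passed and 6.14% rose, and 1 rose and 1 fell in wild type, where 3.63% passed, 1.70% rose and 1.93% fell. The share that fell in PLNR9C cardiomyocytes was 4.33%. Leaving out 1 library moved some of these counts. The count in PLNR9C at 20 weeks went to 5 without its second JQ1 library, and that in wild type non-myocytes to 5 without the first JQ1 library. In PLNR9C cardiomyocytes it went to 0 without the second vehicle library. Without the second JQ1 library Nfkbia was lost there and Birc3 was called instead. The count in wild type cardiomyocytes went to 0 without any 1 of its libraries. The members' median log2 fold change lay between -0.41 and 0.15 over these 8 comparisons.

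Markers of cell types moved with JQ1 in some of them. Of the 14 macrophage markers, 5 fell in PLNR9C at 8 weeks, where their sum was 464.3 to 667.4 CPM with JQ1, and 5 rose and 1 fell at 20 weeks, where it was 1088 to 1169 CPM. In non-myocytes 5 fell and 1 rose in PLNR9C, at 4547 to 5121 CPM, and 9 fell in wild type, at 1428 to 1550 CPM. In wild type ventricle 1 rose and 1 fell at 8 weeks, and 2 fell at 20 weeks. Cardiomyocyte markers rose in wild type non-myocytes with JQ1, 8 of 10, from 3140 to 4757 CPM with vehicle to 8310 to 10560 CPM. Fibroblast markers reached 2086 to 6443 CPM in PLNR9C JQ1 cardiomyocytes, against 1647 to 2280 CPM with vehicle, and 3 of 10 rose. In PLNR9C ventricle the cardiomyocyte markers rose with JQ1, 4 of 10 at 8 weeks (63360 to 69250 CPM against 75040 to 83080 CPM) and 8 of 10 at 20 weeks (42860 to 48020 CPM against 56370 to 61300 CPM). Lymphocyte markers fell in PLNR9C non-myocytes, 5 of 10 tested, from 30.07 to 35.72 CPM down to 13.76 to 14.44 CPM. In wild type non-myocytes 4 fell and 1 rose. At 20 weeks their sum was higher with JQ1, 13.47 to 26.73 against 3.498 to 4.354 CPM in wild type. In PLNR9C it was 17.9 to 22.44 against 5.187 to 8.545 CPM. Cardiomyocytes held 23.05 to 36.28 against 2.582 to 5.052 CPM in wild type and 10.66 to 48.07 against 3.479 to 7.131 CPM in PLNR9C. In each of these comparisons 1 tested marker rose, and 1 fell in wild type at 20 weeks. The highest log2 fold change of the 4 tested at 20 weeks was 5.36 in wild type and 4.61 in PLNR9C. Their medians were -0.0937 and 0.0907. The 2 tested in cardiomyocytes had 3.65 and -0.872 in wild type and 3.89 and -0.905 in PLNR9C. Cd3d, Cd2, Ms4a1 and Nkg7 were at 0 in all 3 wild type JQ1 cardiomyocyte libraries. At 8 weeks the sums overlapped. Of the endothelial markers 4 of 10 rose in PLNR9C cardiomyocytes, from 523.7 to 571.7 CPM up to 717.5 to 1371 CPM. The part of these marker changes in the members' differences was not tested.

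Nfkb1 fell in 7 of the 8 comparisons. At 8 weeks it went from 71.3, 69.9 and 76.0 CPM to 48.4, 48.6 and 53.4 CPM in wild type and from 73.2, 77.9 and 71.6 CPM to 52.5, 50.6 and 55.6 CPM in PLNR9C. No treated library reached the lowest untreated one in either genotype, with log2 fold changes of -0.53 ± 0.07 (adjusted p = 7.05e-06, edgeR) and -0.49 ± 0.07 (adjusted p = 1.41e-05, edgeR). The fall was close to the same size at 20 weeks, 1.43-fold in wild type and 1.5-fold in PLNR9C, and in non-myocytes, 1.44-fold and 1.40-fold. In cardiomyocytes Nfkb1 went from 53.4, 47.8 and 52.1 CPM to 35.7, 38.7 and 35.3 CPM in wild type (adjusted p = 0.0423, edgeR). That call was lost without any single library, at an adjusted p of up to 0.154. In PLNR9C cardiomyocytes it went from 49.9, 56.3 and 60.9 CPM to 40.7, 52.9 and 44.2 CPM, with overlap, and did not pass (-0.28 ± 0.12, adjusted p = 0.146, edgeR, and -0.39 with 0.0663 without the second treated library).

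Rela fell with JQ1 in both genotypes at both ages and in PLNR9C non-myocytes, by less than Nfkb1. In PLNR9C at 8 weeks it went from 53.8, 51.3 and 49.4 CPM to 38.6, 41.0 and 45.4 CPM, without overlap (1.24-fold lower, adjusted p = 0.00253, edgeR). In wild type at 8 weeks it went from 45.7, 44.4 and 43.2 CPM to 35.3, 36.2 and 38.7 CPM (1.21-fold lower, adjusted p = 0.00737, edgeR). In wild type non-myocytes the values were 122, 143 and 129 CPM with vehicle and 127, 99.1 and 106 CPM with JQ1. Those groups overlapped and the difference did not pass (log2 fold change -0.24 ± 0.10, adjusted p = 0.065, edgeR).

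Of the alternative pathway pair, Relb fell with JQ1 in 2 of the 4 sample types in each genotype and Nfkb2 in none. The difference between the 2 genes was not tested. Relb fell at 8 weeks from 14.3, 11.9 and 14.9 CPM to 9.30, 9.30 and 8.09 CPM in wild type (1.53-fold lower, adjusted p = 0.00141, edgeR) and from 26.2, 22.5 and 22.9 CPM to 13.7, 17.9 and 19.1 CPM in PLNR9C (1.42-fold lower, adjusted p = 0.00317, edgeR). The treated PLNR9C libraries thus spanned the level of untreated wild type and above. Relb also fell in wild type at 20 weeks (1.51-fold lower, adjusted p = 0.00203, edgeR) and in PLNR9C non-myocytes, from 59.1, 39.7 and 32.4 CPM to 23.1, 22.3 and 23.7 CPM (1.90-fold lower, adjusted p = 0.00231, edgeR). In PLNR9C at 20 weeks the groups were apart and the difference narrowly missed the threshold in edgeR (-0.30 ± 0.12, adjusted p = 0.0521), while DESeq2 called it (adjusted p = 0.041).

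Nfkb2 passed in none of the 8 JQ1 comparisons. At 8 weeks it went from 35.9, 35.3 and 37.1 CPM to 34.7, 30.4 and 32.6 CPM in wild type (-0.15 ± 0.07, adjusted p = 0.116, edgeR) and from 58.3, 62.8 and 56.6 CPM to 53.1, 52.7 and 55.6 CPM in PLNR9C (-0.14 ± 0.07, 95% interval -0.28 to 0.00, adjusted p = 0.117, edgeR). The treated libraries all lay below the untreated ones in each genotype, by about 1.1-fold. With libraries scaled by total reads alone these 2 differences passed, at -0.20 (adjusted p = 0.0416) and -0.25 (adjusted p = 0.01). In the older ventricles the groups overlapped in each genotype, with 95% intervals of -0.23 to 0.16 in wild type and -0.26 to 0.11 in PLNR9C. In PLNR9C cardiomyocytes it went from 71.5, 70.9 and 66.6 CPM to 57.3, 57.3 and 57.1 CPM, a difference of -0.28 ± 0.09 that missed the threshold in edgeR (adjusted p = 0.0547) and passed in DESeq2 (adjusted p = 0.0224).

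Since no scaling between libraries enters a ratio within a library, the ratio of Nfkb2 to Nfkb1 on the RPKM scale was also taken, after these values had been seen, as a description without a test. At 8 weeks it was 0.582 to 0.601 in wild type with vehicle, 0.727 to 0.853 in wild type with JQ1, 0.941 to 0.961 in PLNR9C with vehicle and 1.19 to 1.24 in PLNR9C with JQ1. The 4 groups did not overlap, and the ratio was higher with each of genotype and treatment. In ventricle at 20 weeks the same order held, with 0.448 to 0.619, 0.690 to 0.846, 0.777 to 0.932 and 1.13 to 1.26, and wild type with JQ1 overlapped PLNR9C with vehicle. In cardiomyocytes it was 0.744 to 0.878 and 1.05 to 1.29 in wild type, and the PLNR9C groups overlapped at 1.30 to 1.70 with vehicle and 1.29 to 1.68 with JQ1. In non-myocytes it was 0.389 to 0.511 in wild type and 0.385 to 0.589 in PLNR9C with vehicle, and 0.689 to 0.818 and 0.678 to 0.738 with JQ1, so that the JQ1 libraries lay above the vehicle libraries and the genotypes overlapped.

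Rel passed in 1 of the 8 JQ1 comparisons. In wild type non-myocytes it went from 6.39, 5.76 and 6.61 CPM to 8.84, 8.38 and 13.5 CPM (1.64-fold, adjusted p = 0.0239, edgeR). The third treated library stood above the others, and without it the log2 fold change was 0.48 (adjusted p = 0.118). That library also held 684 CPM of Nfkbia, against 312 and 336 CPM in the other treated and 341, 233 and 301 CPM in the untreated wild type libraries. The difference of Nfkbia there did not pass with it (log2 fold change 0.61, adjusted p = 0.113, edgeR) or without it (0.17, adjusted p = 0.519).

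**Figure D4:**
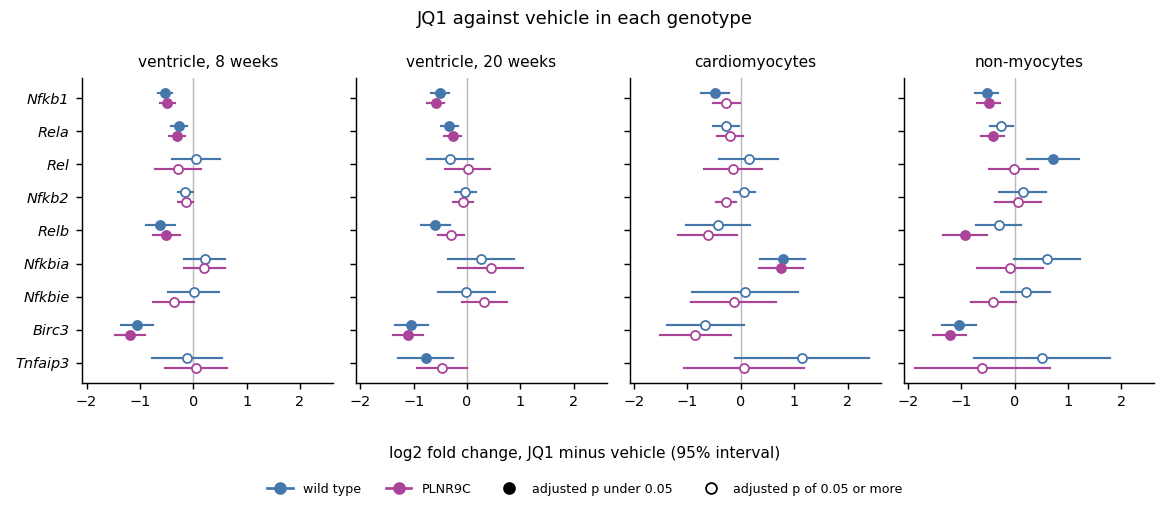
Log2 fold change of each member with JQ1 against vehicle in wild type and in PLNR9C with its 95% interval, filled where the adjusted p was under 0.05. Nfkb1 and Birc3 lie left of 0 in all 8 comparisons shown, Nfkb2 stays between -0.28 and 0.15, and Nfkbia is filled to the right of 0 in cardiomyocytes.

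Among the feedback genes Birc3 had the largest falls. At 8 weeks it went from 8.92, 10.1 and 10.2 CPM to 5.32, 3.92 and 4.93 CPM in wild type (2.08-fold lower, adjusted p = 2.4e-05, edgeR) and from 14.3, 18.8 and 14.9 CPM to 6.38, 7.50 and 7.19 CPM in PLNR9C (2.28-fold lower, adjusted p = 2.52e-06, edgeR). The treated PLNR9C libraries lay below the untreated wild type ones. The falls at 20 weeks were 2.07-fold in wild type and 2.14-fold in PLNR9C, and those in non-myocytes 2.06-fold and 2.32-fold. In non-myocytes Birc3 went from 66.0, 59.4 and 79.6 CPM to 28, 32.9 and 27.5 CPM in PLNR9C, and no treated library came near an untreated one. In cardiomyocytes the values were 12.3, 10.3 and 10.3 CPM and 3.35, 8.90 and 5.81 CPM in PLNR9C, with a log2 fold change of -0.85 ± 0.31 that did not pass (adjusted p = 0.092, edgeR). Without the second treated library it passed at -1.25 (adjusted p = 0.035). That library had the highest macrophage, fibroblast and endothelial markers of its group and the lowest cardiomyocyte markers.

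Nfkbia rose with JQ1 in cardiomyocytes of both genotypes. In wild type it went from 43.3, 32.2 and 36.1 CPM to 58.4, 58.9 and 74.9 CPM (1.72-fold, adjusted p = 0.0452, edgeR) and in PLNR9C from 47.4, 33.1 and 44.9 CPM to 56.0, 91.0 and 64.1 CPM (1.69-fold, adjusted p = 0.0287, edgeR). The groups were apart in each genotype. The call in PLNR9C was lost without the second treated library, at a log2 fold change of 0.52 (adjusted p = 0.0981). That library had the highest macrophage, fibroblast and endothelial markers of its group and the lowest cardiomyocyte markers. The same call was lost without the second untreated library (0.62, adjusted p = 0.104). The call in wild type was lost without any single library (adjusted p up to 0.164). In ventricle Nfkbia had log2 fold changes of 0.21 to 0.44 with JQ1, none of which passed. The JQ1 effect on Nfkbia in PLNR9C cardiomyocytes minus that in non-myocytes was 0.95 ± 0.35 and did not pass (adjusted p = 0.136, edgeR). No member passed that test between the fractions in edgeR or DESeq2, where 2.43% of genes passed. At an unadjusted p under 0.05 were 2 members and 20.4% of all genes.

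Nfkbie passed in no JQ1 comparison. In PLNR9C at 8 weeks it went from 5.50, 6.24 and 5.75 CPM to 3.64, 4.77 and 5.18 CPM, apart but not past the threshold (-0.37 ± 0.18, adjusted p = 0.132, edgeR). At 20 weeks it went from 7.04, 4.41 and 6.32 CPM to 8.98, 7.33 and 5.99 CPM in PLNR9C, with overlap (0.32 ± 0.20, adjusted p = 0.235, edgeR). Tnfaip3 fell in 1 of the 8 comparisons, wild type at 20 weeks, from 4.93, 8.04 and 5.42 CPM to 3.83, 3.31 and 3.61 CPM (1.72-fold lower, adjusted p = 0.0251, edgeR). The second untreated library was the highest, and without it the log2 fold change was -0.52 (adjusted p = 0.139). In wild type cardiomyocytes Tnfaip3 measured 4.34, 3.55 and 16.3 CPM with JQ1 and 2.93 to 4.25 CPM without, so that 1 of the 3 treated libraries set the mean. In wild type non-myocytes it went from 106, 69.4 and 75.5 CPM to 51.3, 56.6 and 251 CPM, at a log2 fold change of 0.52 with all libraries (adjusted p = 0.503, edgeR) and of -0.62 without the third treated one (adjusted p = 0.109). In PLNR9C at 8 weeks it went from 5.46, 7.49 and 6.58 CPM to 4.42, 5.31 and 10.9 CPM, at 0.05 with all libraries (adjusted p = 0.906) and -0.41 without the third treated one (adjusted p = 0.127). Neither direction held without that 1 library.

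**Figure D5:**
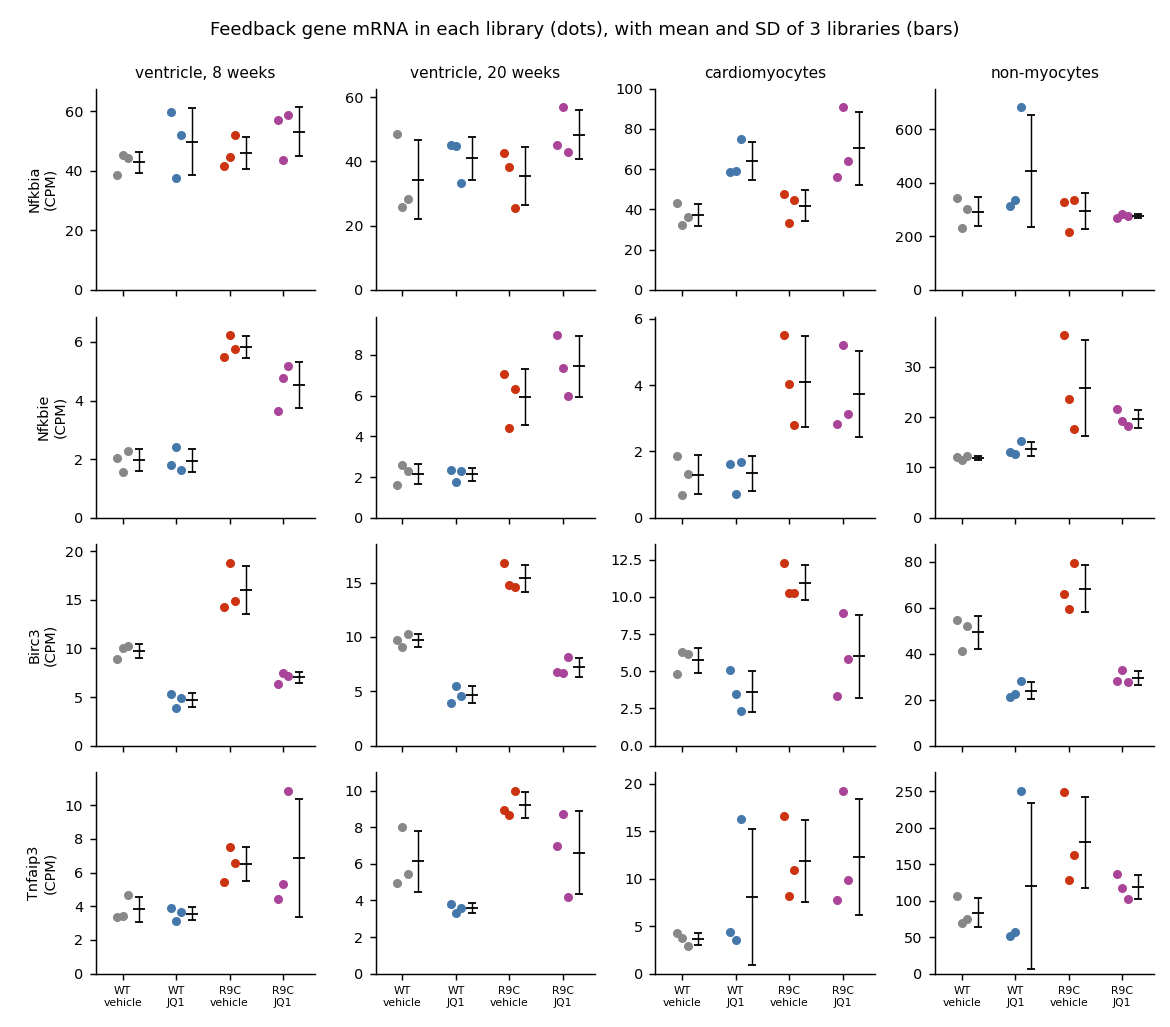
CPM of the 4 inhibitor and feedback genes (rows) in each library (dots) of the 4 sample types (columns), with the mean and SD of 3 libraries as bars and each axis starting at 0. Birc3 is lower with JQ1 in ventricle and non-myocytes of both genotypes, and 1 wild type JQ1 non-myocyte library stands apart at 684 CPM of Nfkbia and 251 CPM of Tnfaip3.

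Whether JQ1 acted differently in the 2 genotypes was tested as an interaction: the log2 fold change with JQ1 in PLNR9C less the same in wild type. No member passed in any of the 4 sample types in edgeR or in DESeq2, where 0.00645%, 0.357%, 0% and 0% of all genes passed in edgeR. At an unadjusted p under 0.05 the members numbered 0 in ventricle of each age, 1 in the cardiomyocyte and 2 in the non-myocyte fraction, and the shares of all genes were 5.62%, 10.3%, 6.75% and 9.06%. Among the genes that fell with JQ1 in both genotypes at 8 weeks, Nfkb1 had an interaction of 0.04 there (95% interval -0.15 to 0.23). Rela had -0.04 (-0.25 to 0.18) and Birc3 -0.13 (-0.55 to 0.28). Nfkb2 had the 1 unadjusted p under 0.05 in cardiomyocytes, with an interaction of -0.35 (95% interval -0.62 to -0.08, adjusted p = 0.734, edgeR). In non-myocytes Relb had -0.63 (-1.22 to -0.04) and Rel -0.74 (-1.41 to -0.06). The test of the genotype effect at 20 weeks against that at 8 weeks passed for no member in edgeR, where 15.5% of genes passed. Rel came nearest, at -0.85 ± 0.31 (adjusted p = 0.0594, edgeR), DESeq2 called it, and it was the 1 member with an unadjusted p under 0.05, as had 27.3% of all genes. The JQ1 effect in PLNR9C likewise passed for no member between the ages, in edgeR or DESeq2, where 0.271% of genes passed. At an unadjusted p under 0.05 were 1 member and 10.2% of all genes.

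The genotype difference was also taken among the JQ1 libraries. At 8 weeks 4 members rose in PLNR9C, where 5.96% of genes passed, 3.43% rose and 2.54% fell. They were Nfkb2 (1.65-fold, adjusted p = 4.86e-06, edgeR), Relb (1.90-fold), Nfkbie (2.31-fold) and Birc3 (1.49-fold). The Birc3 call was lost with the 2 JQ1 groups fitted alone and without some single libraries (adjusted p up to 0.118, edgeR). At 20 weeks 5 rose, where 39.1% passed and 20.8% rose, among them Nfkbie at 3.50-fold and Relb at 2.00-fold. In treated cardiomyocytes 4 rose, where 25.9% passed and 13.6% rose: Nfkb2, Rela, Relb and Nfkbie. Leaving out the second PLNR9C JQ1 or the second wild type JQ1 library left Nfkb2 alone, and leaving out another raised the count to as many as 6. In treated non-myocytes 1 member passed, Rela, which was 1.25-fold lower in PLNR9C, where 18.6% passed and 9.38% fell. That call was lost without any 1 of the 6 libraries but the second wild type JQ1 one (adjusted p up to 0.228), with the replicate block (0.0557), with total reads scaling (0.0513) and with the 2 groups fitted alone (0.0639). Tnfaip3 did not pass there with all libraries (-0.01 ± 0.56, 95% interval -1.28 to 1.25, adjusted p = 0.992, edgeR) and was higher in PLNR9C by 1.15 on the log2 scale (adjusted p = 0.0199) without the third wild type JQ1 library.

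Cardiomyocytes and non-myocytes were compared in a joint fit of 24 libraries. In wild type vehicle 6 members were lower in cardiomyocytes, where 79.5% of 15823 genes passed and 42.2% were lower. Tnfaip3 differed most, at 12.8-fold lower (adjusted p = 3.41e-05, edgeR), followed by Nfkbie (5.14-fold), Birc3 (4.81-fold), Nfkbia (4.39-fold), Rela (1.91-fold) and Nfkb1 (1.87-fold). In PLNR9C vehicle 7 were lower, where 79.2% of genes passed and 42.2% were lower, again with Tnfaip3 at the largest difference (8.87-fold). Nfkb2 was 1.46-fold higher in PLNR9C cardiomyocytes (adjusted p = 0.00345, edgeR) under the trimmed mean scaling, and with total reads alone it turned to -0.21 on the log2 scale (adjusted p = 0.265). Rel in wild type likewise turned from 0.10 to -0.87. The choice of scaling matters here because the median of all genes was -0.13 in wild type and -0.15 in PLNR9C under the main scaling and -1.1 and -0.91 with total reads. Tnfaip3, Nfkbie, Birc3 and Nfkbia stayed lower in cardiomyocytes under each scaling.

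Other genes of the pathway were counted in 4 lists. Of 16 tested ligands and receptors, 6 rose with genotype at 8 weeks and none fell, where 7.86% of all genes rose and 6.50% fell. Their median log2 fold change was 0.60, against 0.0077 for all genes. Tlr2, a Toll-like receptor for bacterial lipoproteins, rose by 1.79 ± 0.19, Tnfrsf1a and Tnfrsf1b, the receptors of tumour necrosis factor, by 0.61 ± 0.08 and 0.74 ± 0.11, and Tlr4, the endotoxin receptor, by 0.70 ± 0.13. At 20 weeks 8 rose and 1 fell, where 23.3% of all genes rose and 21.4% fell. In cardiomyocytes 6 of 15 rose, where 14.3% of all genes rose. In non-myocytes 6 of 18 rose and 1 fell, where 10.3% of all genes rose and 8.32% fell. With JQ1 in PLNR9C, 9 of 16 fell and none rose at 8 weeks, where 17.7% of all genes fell and 15.5% rose. At 20 weeks 7 fell and 1 rose, where 16.1% of all genes fell and 15.9% rose. In cardiomyocytes 1 fell and 1 rose, where 4.33% of all genes fell and 6.14% rose. In non-myocytes 11 of 18 fell and 3 rose, where 19.5% of all genes fell and 16.7% rose. Tlr4 fell by 1.22 ± 0.13 and Tnfsf12, the ligand TWEAK that engages the alternative pathway, by 1.22 ± 0.14 at 8 weeks. With JQ1 in wild type, 7 fell and 1 rose at 8 weeks, where 15.4% of all genes fell and 14.3% rose. At 20 weeks 9 fell, where 14.9% of all genes fell.

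Of 25 kinases and adaptors, 5 rose with genotype at 8 weeks, where 7.86% of all genes rose. At 20 weeks 9 rose and 4 fell, where 23.3% of all genes rose and 21.4% fell. In cardiomyocytes 5 rose and 3 fell, where 14.3% of all genes rose and 11.8% fell. In non-myocytes 2 rose, where 10.3% of all genes rose. Map3k14 encodes NIK, the kinase of the alternative pathway, and Traf3 the adaptor that marks NIK for destruction. Map3k14 rose by 0.59 ± 0.17 at 8 weeks, 1.07 ± 0.12 at 20 weeks and 1.33 ± 0.21 in cardiomyocytes, and Traf3 by 0.40 ± 0.09, 1.05 ± 0.08 and 0.99 ± 0.10. Ikbke, an IkB kinase relative, rose in all 4 sample types, by 0.86 ± 0.22, 1.70 ± 0.20, 2.12 ± 0.40 and 0.77 ± 0.14. With JQ1 in PLNR9C, 5 of the 25 fell and 2 rose at 8 weeks, where 17.7% of all genes fell and 15.5% rose. At 20 weeks 4 fell and 4 rose, where 16.1% of all genes fell and 15.9% rose. In cardiomyocytes 3 fell and 1 rose, where 4.33% of all genes fell and 6.14% rose. In non-myocytes 6 fell and 4 rose, where 19.5% of all genes fell and 16.7% rose. Wild type ventricle had 7 fallen and 4 risen with JQ1 at 8 weeks, where 15.4% of all genes fell and 14.3% rose. It had 5 fallen and 1 risen at 20 weeks, where 14.9% of all genes fell and 12.3% rose. Tab1, a partner of the kinase TAK1, fell in all 8 JQ1 comparisons, by 1.04 ± 0.09 in PLNR9C at 8 weeks and by 1.46 ± 0.16 in wild type non-myocytes.

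Of 18 other IkB proteins and inhibitors, 6 rose with genotype at 8 weeks and none fell, where 7.86% of all genes rose and 6.50% fell. At 20 weeks 8 rose and 2 fell, where 23.3% of all genes rose and 21.4% fell. At these 2 ages Tnip1, which encodes an A20 binding protein, rose by 0.59 ± 0.07 and 1.12 ± 0.09. Bcl3, a nuclear IkB protein that binds p50 and p52, rose by 1.42 ± 0.28 and 1.00 ± 0.15. In cardiomyocytes 4 of 17 rose and 2 fell, with Tnip1 at 1.22 ± 0.12, where 14.3% of all genes rose and 11.8% fell. In non-myocytes 2 of 17 rose, where 10.3% of all genes rose. With JQ1 in PLNR9C 6 fell and 2 rose at 8 weeks, where 17.7% of all genes fell and 15.5% rose. At 20 weeks 5 fell and 1 rose, where 16.1% of all genes fell and 15.9% rose. Bcl3 fell by 1.13 ± 0.27 and 1.70 ± 0.16, while Nfkbiz, another nuclear IkB gene, rose by 0.68 ± 0.15 and 0.85 ± 0.16. PLNR9C cardiomyocytes had 3 of 17 fallen and 1 risen with JQ1, where 4.33% of all genes fell and 6.14% rose. PLNR9C non-myocytes had 5 of 17 fallen and 2 risen, where 19.5% of all genes fell and 16.7% rose. Wild type ventricle had 2 of 18 fallen and 1 risen at 8 weeks, where 15.4% of all genes fell and 14.3% rose. It had 4 fallen and 1 risen at 20 weeks, where 14.9% of all genes fell and 12.3% rose.

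Of 24 other target genes tested at 8 weeks, 9 rose with genotype and 1 fell, with a median of 0.52. Of all genes 7.86% rose and 6.50% fell there. Ccl7, a monocyte chemokine, rose by 2.12 ± 0.45, Myc by 1.22 ± 0.20 and Csf1, the macrophage growth factor, by 0.58 ± 0.11, while Sod2, the mitochondrial superoxide dismutase, fell by 0.44 ± 0.06. At 20 weeks 12 rose and 3 fell, with Sod2 down by 1.13 ± 0.07, where 23.3% of all genes rose and 21.4% fell. In cardiomyocytes 3 of 22 rose and 1 fell, where 14.3% of all genes rose and 11.8% fell. In non-myocytes 4 of 29 rose and 3 fell, where 10.3% of all genes rose and 8.32% fell. With JQ1 in PLNR9C 9 fell and 2 rose at 8 weeks, where 17.7% of all genes fell and 15.5% rose. At 20 weeks 9 fell and 1 rose, where 16.1% of all genes fell and 15.9% rose. In PLNR9C cardiomyocytes 0 of 22 passed in edgeR, where 10.5% of all genes passed. In PLNR9C non-myocytes 4 of 29 fell and 1 rose, where 19.5% of all genes fell and 16.7% rose. Wild type ventricle had 8 fallen and 1 risen with JQ1 at 8 weeks, where 15.4% of all genes fell and 14.3% rose. It had 10 fallen and 1 risen at 20 weeks, where 14.9% of all genes fell and 12.3% rose. Sod2 rose with JQ1 by 0.33 ± 0.06 and 0.50 ± 0.07 in PLNR9C ventricle, against the direction of most of the list.

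The pattern of each member over the 16 group means, centred within each sample type, was set beside that of 11350 other genes. The groups share libraries of 1 sample type and scaling, so that these values describe likeness only. Nfkb2 and Nfkbie were close to each other (Pearson r = 0.965), and Nfkb1 and Birc3 were close to each other (r = 0.946), while Nfkb1 and Nfkbia ran opposite (r = -0.683). Relb lay between the pairs, with r = 0.854 to Nfkb2 and 0.851 to Nfkbie, and 0.878 to Birc3 and 0.717 to Nfkb1. Tnfaip3 had r = 0.842 to Nfkb2, 0.848 to Nfkbie and 0.82 to Relb, and 0.6 to Birc3 and 0.424 to Nfkb1. The genes most like Nfkb2 were Sdf2l1 (r = 0.975), Nfkbie and Lrrc59 (0.963). Those most like Birc3 were Tlr7 (0.991), Tmem173 (0.984) and Ptpro (0.981), and those most like Nfkb1 were Tmem229b (0.982), Chst14 (0.981) and Cd38 (0.979). The genes most like Rela were led by Rhbdf2 (0.958), those most like Relb by Loxl4 (0.969), those most like Nfkbia by Evl (0.922), those most like Nfkbie after Nfkb2 by Lgals3 (0.961), and those most like Tnfaip3 by Ugt1a2 (0.935). Rel had no close match, the nearest being Pdzrn3 at 0.777.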

How the data were processed

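The read counts per gene and library are those the authors deposited, named reads per the file headers. The authors also deposited a normalized value, treated here as RPKM because reads divided by it and by the library total gave 1 length per gene, within 0.0622% over up to 11388 genes. The submitters' processing notes name STAR 2.4.1b, GRCm38 and mm10. The sources used here do not name the counting tool, the annotation or the strand setting.

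Fits used edgeR 4.0.16 and R 4.3.3, with 12 libraries for each sample type (filterByExpr by group, trimmed mean scaling, glmQLFit robust, glmQLFTest). The fractions were also fitted together, and so were the ages. The Benjamini-Hochberg adjustment ran over every gene of a fit, with a threshold of 0.05. The SE is the log2 fold change over the square root of F. Groups were taken from the sample titles, and per the series' design text the 3 libraries are separate biological replicates. For the pooled fractions their independence is not stated in full, so that the p-values measure the spread between these libraries. No 2 libraries were identical. Same-numbered libraries were compared by the correlation of their deviations from the group means. All 3 correlations were over 0.1 for the wild type and PLNR9C vehicle non-myocytes (0.249, 0.124 and 0.157) and for no other 2 groups of a sample type. A single correlation reached 0.298 in cardiomyocytes. The labels give no pairing, and these values do not establish one. The main fits used no replicate block in any comparison. The fits were tested on simulated counts.

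Named genes are the 9 members, Hexim1, up to 4 called genes of each pathway list, by lowest p, and the 3 genes most like each member among genes of at least 5 CPM. Members and lists were chosen with earlier results of these data known. DESeq2 1.42.0, other scalings, no filter, a replicate block, the 2 groups alone and leaving out each library were tried. The symbol Ly6g was not used here. Figures were drawn with matplotlib 3.10.9.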

Additional observations from a re-analysis of the deposited data

How the results depend on the processing

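Of 234 pairs of member and comparison, 74 passed in the main test. The same call was kept by 73 with DESeq2, 73 with RLE scaling, 71 without the filter, 69 with total reads (scaling chosen after seeing the data) and 68 with the replicate block. Fitting the 2 groups alone, done for comparisons of 2 groups within a sample type, kept 54 calls and lost 6. Over all the fits without 1 library, calls were kept 374 times and lost 70 times. The block kept the 4 members called for genotype in non-myocytes, where all 3 same-numbered correlations were over 0.1. With the 2 groups alone and the block (chosen after seeing the data) 5 were called. In the other comparisons fewer same-numbered correlations were this high (over 0.1 in 1, 1, 3 and 5 of 18 pairs at 8 weeks, 20 weeks, cardiomyocytes and non-myocytes, the last with the 3 pairs of that comparison). There the members called with the block were 3 and not 5 for genotype in cardiomyocytes, 0 and not 2 for JQ1 in wild type cardiomyocytes, 0 and not 1 for genotype with JQ1 in non-myocytes, and 1 and not 0 (Nfkb2) for the genotype effect between fractions. For JQ1 in PLNR9C cardiomyocytes (1) DESeq2 called 2 and total reads or the 2 groups alone 0. For JQ1 in wild type cardiomyocytes total reads gave 1. For genotype with JQ1 in non-myocytes DESeq2 gave 2 and total reads 0. For the genotype effect between fractions total reads gave 2, and between ages DESeq2 and total reads 1 each (Rel and Nfkb1). Over all genes, JQ1 in PLNR9C cardiomyocytes called 1480 in the main fit and 22 with the 2 groups alone, and JQ1 in wild type cardiomyocytes 513, 872 with DESeq2 and 1183 with the 2 groups alone. Interactions called 1, 57, 0 and 0 genes, and 11, 216, 6 and 66 with DESeq2. JQ1 in PLNR9C between fractions called 384 and 651 with DESeq2, and between ages 44 and 163. Without 1 library JQ1 in PLNR9C between fractions called 159 to 1804 and between ages 11 to 58, JQ1 in cardiomyocytes 643 to 2513 in PLNR9C and 109 to 276 in wild type, genotype with JQ1 455 to 790 at 8 weeks (924 with all), and the interactions 0 to 22, 8 to 87, 0 to 0 and 0 to 225 (the last without the first PLNR9C JQ1 library). Total reads moved the median of all genes to 0.13, 0.27 and 0.15 for genotype at 8 weeks, 20 weeks and in cardiomyocytes. The causes were not tested.

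Leaving out 1 library gave 4 to 5, 4 to 6, 3 to 4 and 1 to 4 members for genotype, in the order of sample types above. JQ1 in PLNR9C gave 4 to 4, 2 to 5, 0 to 1 and 4 to 5, and in wild type 4 to 5, 4 to 5, 0 to 0 and 2 to 5. Genotype with JQ1 gave 3 to 5, 5 to 5, 1 to 6 and 0 to 1, and the genotype effect between fractions and between ages 0 to 1 each. Of the 234 pairs, 58 turned direction under some alternative, of which 1 was called (Nfkb2 between the fractions in PLNR9C). Among pairs given a value in the text or called under any setting, the turned ones were Tnfaip3 for JQ1 in PLNR9C at 8 weeks (-0.0021 with the block, -0.058 with total reads, -0.41 to 0.28 without a library, with -0.072 among them) and in wild type non-myocytes (-0.62 to 0.88 without a library), Nfkbia for genotype at 20 weeks (-0.11 to 0.40 without a library) and in non-myocytes (-0.0054 with the block, -0.013 with total reads, -0.11 to 0.20 without a library), Nfkb2 for JQ1 in wild type at 20 weeks (-0.11 to 0.037 without a library) and non-myocytes (-0.038 with total reads), the interactions at 8 weeks of Nfkb1 (-0.014 with total reads), Rela (-0.097 to 0.014) and Birc3 (-0.25 to 0.00018), both without a library, Tnfaip3 for genotype with JQ1 in non-myocytes (0.15 with the block, 0.032 with total reads, -0.35 to 1.15 without a library, with 0.014 and 0.105 among them), Nfkb2 (-0.26 to 0.020 without a library in wild type, -0.21 with total reads in PLNR9C), Rel (-0.87 with total reads and -0.040 to 0.17 without a library in wild type) and Relb (-0.35 to 0.21, with 0.023 and 0.077 among them, without a library in PLNR9C) between the fractions. Nfkbie and Rel rest on few reads in cardiomyocytes (8 to 65 and 35 to 54 per vehicle library), which limits what was detectable there.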
